A study of Mus musculus with 6 samples.

Results

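The genes described here are 46 genes of cholesterol and fatty acid metabolism, chosen by name from the 24628 rows of a deposited RNA-seq table of mouse ILC1s, innate lymphocytes related to natural killer (NK) cells. They cover the mevalonate arm of cholesterol synthesis (7 genes), the steps from squalene to cholesterol (11), sterol sensing (5), sterol efflux and storage (5), fatty acid synthesis (10) and fatty acid uptake and oxidation (8). All 46 were found in the table. The study compared 3 libraries titled as homozygous for floxed Rora (Rora fl/fl), here called floxed, with 3 libraries titled treatment, here called cKO. Rora encodes the nuclear receptor RORα, and the series text names wild-type and conditional knockout (cKO) ILC1s, so the second group was identified by elimination. The table columns of the cKO libraries combine the names Ncr1 and Rora, and the labels name no Cre line, tissue, age, sex or number of animals and call the cells lymphocytes. Nothing in the labels says that replicates came from separate animals, so the p-values below measure only the spread between these libraries, which may be technical.

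Cells build cholesterol from acetyl-CoA through the mevalonate pathway, and the transcription factor SREBP-2 raises the genes of this pathway when sterols in the endoplasmic reticulum run low. SREBP-1 does the same mainly for fatty acid synthesis, while liver X receptors raise the cholesterol exporters when oxysterols accumulate. Lymphocytes draw on lipid synthesis when they grow and divide, and on mitochondrial fatty acid oxidation when they persist at rest. RORα itself belongs to a receptor family known to bind sterols.

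The libraries held 20152146 to 22440170 reads assigned to genes. Rora was at 6.92, 7.41 and 7.91 RPKM (reads per kilobase of gene length, scaled to the reads of each library) in the floxed libraries and at 5.69, 6.29 and 6.24 RPKM in the cKO libraries, and limma did not call it (log2 difference -0.25, adjusted p = 0.242). No source used here names the deleted exons, so a whole-gene value does not check the deletion. The ILC1 and NK genes Ncr1 (372 ± 10.8 and 246 ± 12.5 RPKM, SD, n = 3 each) and Klrb1c (103 ± 5.09 and 99.4 ± 4.01 RPKM) were abundant in both groups. Of 13 ILC1 and NK markers, all tested, Eomes passed as higher and Ncr1 and Cxcr6 as lower in the cKO libraries. The adipocyte markers Adipoq and Fabp4 summed to at most 0.237 RPKM in a library and 5 hepatocyte markers to at most 1.54 RPKM. The cKO libraries also differed from the floxed ones in 14 of 17 tested immediate-early and heat-shock genes, all higher, in 1 of 10 tested proliferation genes (Mki67, lower), and in Xist (31.9 ± 3.16 and 9.43 ± 0.394 RPKM) and the Y-linked Ddx3y (10.4 ± 0.498 and 20.8 ± 0.438 RPKM). The part of these differences in the values below was not tested.

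No gene of the set passed the test in either direction. Limma on log2(RPKM + 1) tested the 37 of the 46 genes that reached 1 RPKM in at least 3 libraries. At a Benjamini-Hochberg adjusted p under 0.05, 0 of 37 passed as higher and 0 as lower in the cKO libraries, against 0.652% of all 12731 tested genes called higher and 0.668% called lower (1.32% in all). At that background, fewer than 1 of 37 genes would be called, so the count of 0 does not set the genes apart. At an unadjusted p under 0.05 there were 3 of 37, or 8.11%, against 14.1% of all tested genes: Elovl5 and Acadl were lower (8.6% of all tested genes were) and Scd2 was higher (5.55%). Limma voom, a count-based weighting run on reads recovered from the RPKM values, also called 0 of 37, against 4.19% of all tested genes (1.78% higher and 2.41% lower). In voom 4 of 37 had an unadjusted p under 0.05, against 16.1% of all: Scd2 was higher (5.84% of all) and Cyp51, Elovl5 and Acadl were lower (10.2%). Of the tested genes 13 lay above 0 and 24 below, with a median log2 difference of -0.03, and the median over all tested genes was -0.03 as well. The median absolute log2 difference was 0.10 for these genes and 0.11 for all tested genes.

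The intervals show how far the 2 groups of libraries could differ on this scale. Like the p-values, they measure only the spread between these libraries, and they are per gene with no adjustment over the genes. The 95% confidence interval of limma lay within a 1.5-fold change in both directions for 33 of 37 genes and within a 2-fold change for all 37. The 4 genes with wider intervals were Cpt2, Cyp51, Nsdhl and Lss. A pseudocount of 1 compresses changes of low genes, so the intervals of voom, which has no such compression, were read beside them: 30 of 37 lay within 1.5-fold and 35 within 2-fold, with Cyp51 and Mvk reaching beyond. The libraries of the 2 groups did not overlap for 6 of 37 tested genes, 3 higher and 3 lower. That is 16.2%, against 20.3% of all tested genes (7.61% higher and 12.7% lower). The higher ones were Mvk, Npc1 and Scd2, and the lower ones Cyp51, Elovl5 and Acadl.

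**Figure D1:**
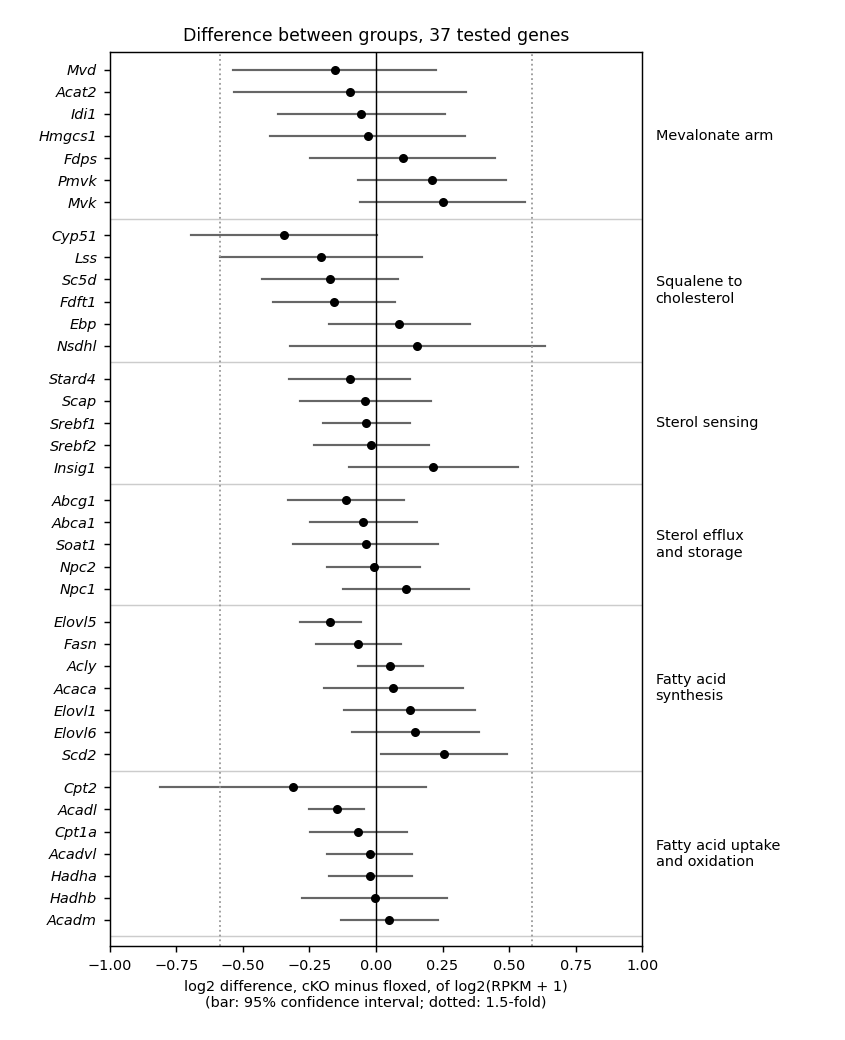
Log2 difference (cKO minus floxed, of log2(RPKM + 1)) for the 37 tested genes, ordered within the 6 gene groups; points are limma estimates from 3 libraries per group, bars are 95% confidence intervals and dotted lines mark a 1.5-fold change. The intervals of Elovl5 and Acadl lie below 0 and that of Scd2 above 0, all before adjustment, and 33 of 37 intervals stay between the dotted lines.

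Levels in the set ran from Acadl at a mean of 39.1 RPKM over the 6 libraries (percentile 93.6 of all genes in the table) to Fads2 at 0.0102 RPKM (percentile 6.38). A mean of at least 10 RPKM was reached by 11 genes, 26 lay between 1 and 10 RPKM and 9 lay under 1 RPKM. Acadl, Acly, Elovl5, Acadvl and Hadha, all listed here under fatty acid synthesis or oxidation, held the top 5 places. The highest of the 23 sterol synthesis and sensing genes was Ebp, at 12.6 RPKM. RPKM divides by the deposited gene length, which was 0.479 (Fads2) to 3.22 (Hadhb) times the longest protein-coding GENCODE transcript. On that transcript length, an alternative chosen after the data were seen, the top 5 were again these genes, with Hadha in place 2 and Hadhb moving from place 32 to 21.

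**Figure D2:**
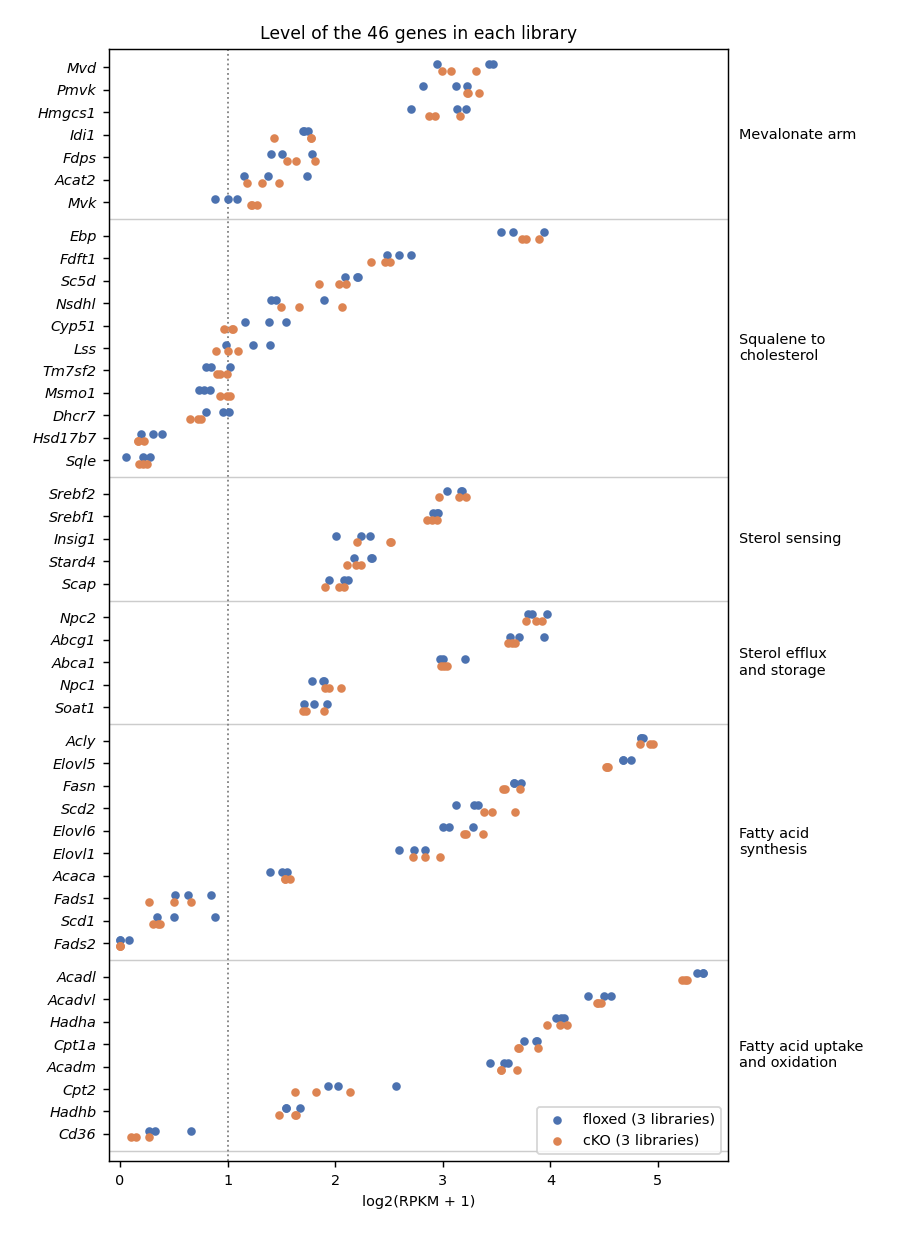
Level of the 46 genes in each library as log2(RPKM + 1), grouped by pathway and ordered by mean level within each group; each point is 1 library, with 3 floxed and 3 cKO libraries per gene, and the dotted line marks 1 RPKM. Floxed and cKO points interleave for most genes, and 9 genes lie at a mean under 1 RPKM.

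The mevalonate arm was expressed throughout, at 1.18 to 8.31 RPKM, and 0 of its 7 tested genes passed. Mvd, the decarboxylase that makes isopentenyl diphosphate, was its most abundant gene, at 10.1, 9.74 and 6.71 RPKM in floxed and 7.46, 8.89 and 6.95 RPKM in cKO libraries. The lowest and the highest of these values were both floxed, and the log2 difference was -0.16 (SE 0.16, adjusted p = 0.734). It was -0.06 without floxed replicate 1 and -0.32 without floxed replicate 3. Pmvk, phosphomevalonate kinase, stood at 7.69, 8.37 and 6.04 RPKM in floxed and 8.40, 8.32 and 9.10 RPKM in cKO libraries. One floxed library lay inside the cKO range (log2 difference 0.21, 95% interval -0.07 to 0.49, adjusted p = 0.497). Without floxed replicate 3, the low value, the difference was 0.09. Mvk, the mevalonate kinase acting just before it, was at 0.844, 1.13 and 1.0 RPKM in floxed and 1.33, 1.35 and 1.42 RPKM in cKO libraries. All 3 cKO values were above all 3 floxed values, yet they rest on 49 to 84 reads per library, and neither limma (0.25, adjusted p = 0.458) nor voom (0.47, adjusted p = 0.496) called the gene. Hmgcs1, the synthase that commits acetyl-CoA to the pathway, was at 7.75, 5.53 and 8.28 RPKM in floxed and 6.59, 7.94 and 6.31 RPKM in cKO libraries, so the groups overlapped (log2 difference -0.03, interval -0.40 to 0.33). Acat2, which joins acetyl-CoA units in the cytosol, Idi1, the isomerase, and Fdps, which makes farnesyl diphosphate, had log2 differences of -0.10, -0.05 and 0.10. In all, 3 of the 7 lay above 0 and 4 below, with a median of -0.03.

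Hmgcs1 is a textbook target of SREBP-2. Among the 37 genes with a RefSeq promoter, only its promoter held an exact match to TCACNCCAC, the form of the sterol regulatory element searched for. Other forms of the element were not searched for. The 250 bases before its annotated start (GRCm38.p6, chr13:119690101-119690350, plus strand) are printed to show how the element sits among sites for NF-Y, a factor known to work beside SREBP. Capitals mark the element at position -137 from the start and 3 matches to CCAAT, which read ATTGG on this strand.
Hmgcs1: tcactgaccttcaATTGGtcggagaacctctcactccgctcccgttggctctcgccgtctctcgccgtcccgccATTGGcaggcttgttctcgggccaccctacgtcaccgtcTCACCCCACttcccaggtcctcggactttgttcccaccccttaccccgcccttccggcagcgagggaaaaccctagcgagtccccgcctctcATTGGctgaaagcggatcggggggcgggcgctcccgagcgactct
This form of the sterol element was searched for on both strands of 300-base windows. It was held by 2.27% of the 44 promoters of these genes and by 1.24% of all 32851 promoters. CCAAT was held by 59.1% of the 44 promoters of these genes and by 37.4% of all promoters. E-boxes (CACGTG) were in 18.2% and 7.15%, and the liver X receptor direct repeat of AGGTCA in 0 of 44 and 0.0152%. The 20 tested genes with CCAAT had a median log2 difference of -0.03 and the 11 without it one of -0.02. A match is a stretch of letters and not a measured binding site, and the files hold no binding data.

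From squalene to cholesterol, 6 of 11 genes were high enough to test and 0 passed. Ebp, the isomerase that shifts the sterol double bond, was the most abundant, at 10.6, 11.6 and 14.3 RPKM in floxed and 12.7, 13.9 and 12.3 RPKM in cKO libraries (log2 difference 0.09, adjusted p = 0.794). The cKO values lay inside the floxed range. Fdft1, squalene synthase, was at 4.57, 5.50 and 5.04 RPKM in floxed and 4.05, 4.5 and 4.68 RPKM in cKO libraries (-0.16, interval -0.39 to 0.07). Only the top cKO library reached the floxed range. Cyp51 (mm10, chr5:4081145-4104746), the lanosterol demethylase, showed the lowest estimate of the set: 1.24, 1.92 and 1.61 RPKM in floxed and 0.949, 1.06 and 1.07 RPKM in cKO libraries. The groups did not overlap, and the cKO mean was 64.5% of the floxed one. Its log2 difference was -0.35 (SE 0.15, interval -0.70 to 0.00218, adjusted p = 0.357) in limma and -0.60 (adjusted p = 0.208) in voom, on 94 to 171 reads per library. Lss, lanosterol synthase, was at 1.64, 1.35 and 0.981 RPKM in floxed and 1.14, 1.0 and 0.861 RPKM in cKO libraries (-0.21, adjusted p = 0.632), with 2 floxed libraries above all cKO libraries. Voom gave Lss -0.38 (adjusted p = 0.342), and leaving out 1 library gave -0.32 to -0.11 in limma. Sc5d, a late desaturase, and Nsdhl, which removes a methyl group, had log2 differences of -0.17 and 0.16. Nsdhl and Ebp are X-linked. In the same floxed and cKO libraries Xist had means of 31.9 and 9.43 RPKM, and Ddx3y of 10.4 and 20.8 RPKM. The part of this difference in Nsdhl and Ebp was not tested, and it cannot be told apart from the group. The median over the 6 tested genes was -0.17, with 4 below 0 and 2 above.

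The other 5 genes of this segment stayed under the test's limit on low values. Msmo1, the methylsterol oxidase, was at 0.720, 0.783 and 0.662 RPKM in floxed and 0.899, 1.03 and 0.989 RPKM in cKO libraries. Dhcr7, which makes cholesterol from its last precursor, was at 0.942, 0.742 and 1.02 RPKM in floxed and 0.567, 0.684 and 0.655 RPKM in cKO libraries. The groups did not overlap for either gene, with the cKO libraries higher for Msmo1 and lower for Dhcr7. Summed over 3 libraries these were 281 and 392 reads for Msmo1 and 334 and 242 reads for Dhcr7. Tm7sf2, a sterol reductase, overlapped between groups at 0.740 to 1.03 RPKM. Sqle, the squalene epoxidase that is a rate-limiting step, rested on 5 to 26 reads per library, and Hsd17b7, a ketosteroid reductase, on 14 to 34. Of the 8 untested genes of the whole set with a mean of 0.1 RPKM or more, 1 was higher without overlap (Msmo1) and 2 were lower (Dhcr7 and Cd36). Of all 5586 such untested genes, 10.7% did not overlap (4.48% higher and 6.27% lower), a background added after the values were seen. When limma was run with no limit on low values, none of the 9 genes of the whole set that it had left out passed (adjusted p 0.60 to 0.907), and 0 had an unadjusted p under 0.05.

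In sterol sensing 0 of 5 tested genes passed, and 5 of 5 limma intervals and 4 of 5 voom intervals lay within a 1.5-fold change. Srebf2, which encodes SREBP-2, was at 7.99, 7.22 and 8.05 RPKM in floxed and 8.30, 7.86 and 6.82 RPKM in cKO libraries. The cKO libraries held both the highest and the lowest value (log2 difference -0.02, interval -0.23 to 0.20). Srebf1 was at 6.52, 6.73 and 6.74 RPKM in floxed and 6.23, 6.71 and 6.48 RPKM in cKO libraries (-0.04, interval -0.20 to 0.13). Insig1, which holds the SREBP complex in the endoplasmic reticulum and is itself an SREBP target, was at 4.01, 3.74 and 3.03 RPKM in floxed and 4.70, 3.60 and 4.72 RPKM in cKO libraries. Two-sided limma gave it 0.22 (interval -0.10 to 0.53, adjusted p = 0.543), with 1 cKO library inside the floxed range. Stard4, a cytosolic sterol carrier, was at 4.08, 3.51 and 4.02 RPKM in floxed and 3.73, 3.57 and 3.33 RPKM in cKO libraries (-0.10, adjusted p = 0.710). Scap, the escort of SREBP, was at 3.14 ± 0.264 and 3.03 ± 0.252 RPKM (-0.04).

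Among the genes of efflux and storage, 0 of 5 passed, and the endosomal protein Npc2 and the exporter Abcg1 were the most abundant. Npc2, which passes cholesterol out of late endosomes, was at 12.9, 13.2 and 14.6 RPKM in floxed and 12.7, 13.6 and 14.2 RPKM in cKO libraries (log2 difference -0.01, interval -0.18 to 0.16). Abcg1 was at 11.3, 12 and 14.3 RPKM in floxed and 11.7, 11.5 and 11.2 RPKM in cKO libraries (-0.11, adjusted p = 0.651). Floxed replicate 3 was the high value, and the other 2 floxed libraries lay near the cKO ones. Npc1, the membrane partner of Npc2, was at 2.70, 2.72 and 2.44 RPKM in floxed and 3.15, 2.84 and 2.75 RPKM in cKO libraries, without overlap (0.11, interval -0.12 to 0.35, adjusted p = 0.684). Abca1, the exporter to apolipoprotein A-I, and Soat1, which esterifies cholesterol for storage, were at -0.05 and -0.04. Both exporters are textbook liver X receptor targets.

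Fatty acid synthesis held 2 of the 3 genes with an unadjusted p under 0.05 in limma, in opposite directions, and 0 of its 7 tested genes passed. These are 28.6% of its tested genes, against 14.1% of all tested genes. Elovl5 (mm10, chr9:77917364-77984519), the elongase of polyunsaturated fatty acids, was at 24.5, 24.5 and 25.9 RPKM in floxed and 22.2, 21.8 and 22.1 RPKM in cKO libraries. The groups did not overlap, and the cKO mean was 88.3% of the floxed mean (log2 difference -0.17, SE 0.05, interval -0.29 to -0.06, adjusted p = 0.189). Over the alternative analyses its adjusted p ranged from 0.133 to 0.403. Scd2 (mm10, chr19:44293676-44306864), a stearoyl-CoA desaturase that makes monounsaturated fatty acids, was at 8.80, 7.73 and 9.02 RPKM in floxed and 9.99, 9.43 and 11.7 RPKM in cKO libraries. Each cKO library was above each floxed library (0.25, interval 0.02 to 0.49, adjusted p = 0.322; voom 0.28, adjusted p = 0.121). Its paralog Scd1 was low in every library, at 0.419, 0.267 and 0.841 RPKM in floxed and 0.240, 0.294 and 0.281 RPKM in cKO libraries, so Scd2 was 10.7 to 41.7 times as high per length. The longest stretch in which their transcripts agree at 95% identity or more is 623 bases, and reads from it could be counted for either gene.

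Acly, Fasn and Acaca, the trunk of the pathway, had groups that overlapped and did not pass. Acly, which makes cytosolic acetyl-CoA from citrate, was at 27.7, 27.7 and 28.1 RPKM in floxed and 29.3, 27.4 and 30.01 RPKM in cKO libraries (log2 difference 0.05, interval -0.07 to 0.18). Fasn, fatty acid synthase, was at 11.9 ± 0.339 and 11.3 ± 0.728 RPKM (-0.07, interval -0.23 to 0.09), and Acaca, the carboxylase that supplies malonyl-CoA, at 1.80 ± 0.152 and 1.93 ± 0.0579 RPKM (0.07). Elovl6, which extends palmitate, was at 7.69 ± 0.923 and 8.61 ± 0.661 RPKM (0.15, adjusted p = 0.579), and Elovl1, an elongase of very long chains, at 5.61 ± 0.551 and 6.21 ± 0.632 RPKM (0.13). The front-end desaturase Fads1 was at 0.206 to 0.80 RPKM, and Fads2, which acts beside it, had 2 reads in floxed replicate 1 and 0 in the other 5 libraries.

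In fatty acid uptake and oxidation 0 of 7 tested genes passed, and Acadl had the lowest p. Acadl (mm10, chr1:66830839-66863277), the long-chain acyl-CoA dehydrogenase and the most abundant gene of the set, was at 41.7, 41.7 and 40.1 RPKM in floxed and 37.5, 36.4 and 37.2 RPKM in cKO libraries. No cKO library reached the floxed range, and the cKO mean was 90.0% of the floxed one (log2 difference -0.15, SE 0.04, interval -0.25 to -0.05, adjusted p = 0.199). Its adjusted p ranged from 0.147 to 0.392 over the alternatives. Acadvl, the very-long-chain enzyme of the same family, was at 22.6, 21.6 and 19.4 RPKM in floxed and 21.2, 20.7 and 20.6 RPKM in cKO libraries (-0.02, interval -0.18 to 0.14), the floxed libraries spanning the cKO ones. Acadm, the medium-chain enzyme, was at 10.6 ± 0.690 and 11 ± 0.716 RPKM (0.05).

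Cpt1a, the outer mitochondrial carnitine transferase that admits fatty acids to oxidation, was at 13.6, 13.7 and 12.5 RPKM in floxed and 12.1, 12 and 13.8 RPKM in cKO libraries (log2 difference -0.07, adjusted p = 0.768), and the groups overlapped. Cpt2, its inner-membrane partner, had the widest limma interval of the set: 3.08, 2.82 and 4.91 RPKM in floxed and 2.53, 3.41 and 2.09 RPKM in cKO libraries (-0.31, interval -0.81 to 0.19, adjusted p = 0.575). Without floxed replicate 3, its high value, the log2 difference was -0.12. Hadha and Hadhb, the subunits of the mitochondrial trifunctional protein, were at 16.1 ± 0.426 and 15.8 ± 1.07 RPKM and at 2.00 ± 0.161 and 1.99 ± 0.185 RPKM (log2 differences -0.02 and -0.01). Hadha was 7.51 to 8.46 times as high as Hadhb per deposited length in every library, and 5.39 times on transcript length. A processed pseudogene, Gm13910, matches 1428 bases of the Hadhb transcript at 99.8% identity, so the level of Hadhb is uncertain where reads map to both.

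Cd36, the scavenger receptor that imports fatty acids, was near the floor, at 0.257, 0.581 and 0.206 RPKM in floxed and 0.0745, 0.106 and 0.202 RPKM in cKO libraries. Every cKO value was below every floxed value, but the closest pair differed by 0.206 against 0.202 RPKM, and the gene rested on 78 reads in the 3 floxed and 30 in the 3 cKO libraries. Macrophages express Cd36. A list of 12 macrophage and monocyte markers summed to 42.3 to 49.9 RPKM in floxed and 38.0 to 40.5 RPKM in cKO libraries, with 0 of 4 tested markers passing and 8 of 12 under a mean of 1 RPKM. A list of 8 B cell markers summed to 13.4 to 13.9 and 7.85 to 8.95 RPKM. Of these markers 6 of 8 lay under a mean of 1 RPKM, and 1 of 2 tested ones (Cd22) passed as lower. For 8 stromal and endothelial markers the sums were 17.5 to 17.6 and 14.1 to 16.02 RPKM, with 7 of 8 under a mean of 1 RPKM. The 1 tested marker, Pecam1, made up most of these sums (mean 16.2 RPKM over the 6 libraries) and did not pass. For 8 T cell markers the sums were 59.5 to 63.5 and 54.1 to 59.8 RPKM. Here 4 of 8 lay under a mean of 1 RPKM, and 1 of 5 tested markers (Cd3e) passed as lower. The sums of 7 dendritic cell markers went the other way, at 55.6 to 64.9 and 64.6 to 71.3 RPKM. Of these markers 5 of 7 lay under a mean of 1 RPKM, and 0 of 2 tested ones passed. The part of these cells in the Cd36 reads was not tested, and in bulk libraries fewer cells of a type and less RNA per cell cannot be told apart.

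Acadvl and Dhcr7 were the only genes of the set with a RefSeq promoter window that held TAGGTCA. These letters are the core of the element that ROR receptors are known to bind. On either strand, 3 of the 44 promoters of these genes (6.82%) and 2.61% of all promoters held the core. Counted by gene, the core was in 2 of 37 (5.41%) and in 2.97% of all genes with a promoter. This core shares AGGTCA with the liver X receptor repeat. The Acadvl stretch is printed because Acadvl was the one tested gene with the core, Dhcr7 being too low to test. It lies before the start on the minus strand (GRCm38.p6, chr11:70015429-70015678), and capitals mark the match at position -88.
Acadvl: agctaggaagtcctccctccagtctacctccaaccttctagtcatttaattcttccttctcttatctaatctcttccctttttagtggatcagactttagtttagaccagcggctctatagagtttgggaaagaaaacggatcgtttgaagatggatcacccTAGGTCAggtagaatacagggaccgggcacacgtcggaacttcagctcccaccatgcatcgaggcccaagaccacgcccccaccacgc
The Acadvl values above gave no call. The Dhcr7 values were lower in the cKO libraries without overlap, at 70.5% of the floxed mean. So were 6.27% of all untested genes with a mean of 0.1 RPKM or more lower without overlap. The part of the core in these values was not tested. Of the exon bases of Acadvl, 42.9% also lie in exons of Dvl2 on the opposite strand, and the strand setting of the counting was not given in the sources used here. Opposite-strand overlap was 26.8% for Fdft1 (with Ctsb) and 13.2% for Scap, and same-strand overlap was 26.7% for Fdps and 15.3% for Tm7sf2. Matches of 200 bases or more at 95% identity to transcripts of another gene were found for 12 of the 46 genes, the longest being 6118 bases between Acaca and the pseudogene Gm5182.

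Summed per library, all 46 genes came to 318.8, 321.6 and 320.2 RPKM in floxed and 310.3, 313.1 and 314.98 RPKM in cKO libraries. These sums did not overlap, and the cKO mean was 97.7% of the floxed one. After median-ratio scaling, a step chosen after the values were seen that sets the median gene equal between libraries, they overlapped, at 315.1 to 316.2 and 312.8 to 316.6 RPKM. The mevalonate arm summed to 28.3 to 32.7 RPKM in floxed and 28.9 to 32.3 RPKM in cKO libraries, and squalene to cholesterol to 26.8 to 30.3 and 26.5 to 29.7 RPKM. Sterol sensing was at 25.02 ± 0.707 and 25.05 ± 1.07 RPKM (SD, n = 3 each), efflux and storage at 38.6 ± 2.61 and 37.4 ± 0.562 RPKM, and fatty acid synthesis at 89.4 ± 1.44 and 90.0 ± 3.16 RPKM. The sums of these 5 gene groups overlapped between floxed and cKO libraries. Uptake and oxidation summed to 109.6, 110.2 and 105.0 RPKM in floxed and 102.9, 101.3 and 102.2 RPKM in cKO libraries, which did not overlap, and the cKO mean was 94.4% of the floxed one. With Acadl left out, a step chosen after the values were seen, that sum was 64.9 to 68.5 RPKM in floxed and 64.9 to 65.4 RPKM in cKO libraries and overlapped. It also overlapped after median-ratio scaling, at 103.7 to 108.3 and 102.1 to 103.8 RPKM. No test was run on these sums, since the genes were chosen.

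**Figure D3:**
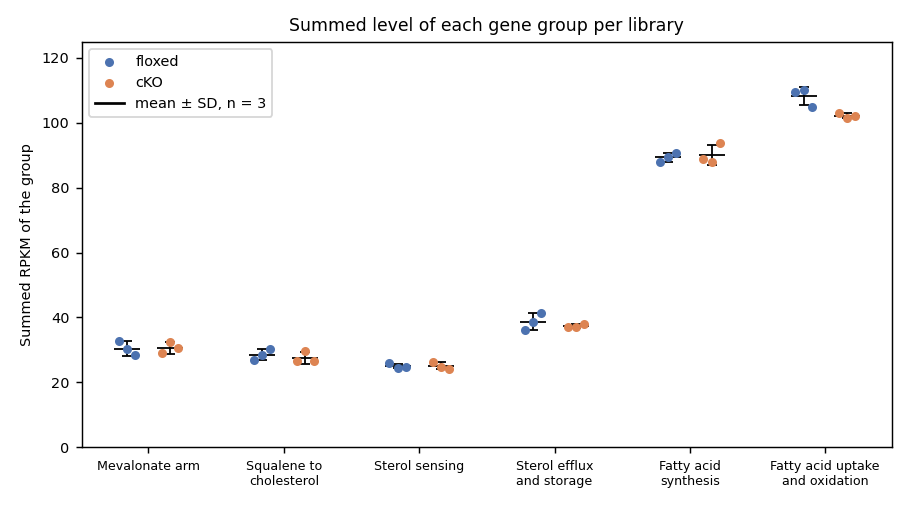
Summed RPKM of each gene group per library, with points for the 3 floxed and 3 cKO libraries and black marks for the mean ± SD (n = 3). The 6 groups run from about 25 RPKM for sterol sensing to over 100 RPKM for uptake and oxidation, the only one of the 6 whose floxed and cKO points do not overlap.

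Replicate 3 of each group held more of the extreme values than any other library. The highest value of a tested gene fell in floxed replicate 3 for 10 genes and in cKO replicate 3 for 10, and in the other 4 libraries for 3 to 7 genes each. The lowest fell in cKO replicate 3 for 9 genes and in floxed replicate 3 for 8, and in the others for 4 to 6.

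Outside the set, 2 of 60 tested genes from the rest of these pathways passed, both lower in the cKO libraries, and 0 passed as higher. The list held 99 genes and was chosen with earlier results of these data known. Over all tested genes, the share called lower was 0.668% and the share called higher 0.652%. Gramd1a, which moves cholesterol from the plasma membrane to the endoplasmic reticulum, fell from 243.6 ± 4.22 to 198 ± 3.80 RPKM (246, 246 and 239 against 199, 194 and 201 RPKM; log2 difference -0.30, interval -0.38 to -0.21, limma adjusted p = 0.0165). Slc27a6, a fatty acid transporter, fell from 10.2 ± 0.420 to 5.24 ± 0.808 RPKM (9.73, 10.5 and 10.5 against 4.45, 6.06 and 5.20 RPKM; -0.85, adjusted p = 0.0192). Both genes had groups that did not overlap. Gramd1a lost its call without any 1 of the 6 libraries (adjusted p 0.0598 to 0.0908), and Slc27a6 lost it without floxed replicate 1, 2 or 3 or cKO replicate 3 (adjusted p 0.0624, 0.0856, 0.0883 and 0.0814). Gramd1a also lost it without the mean-variance trend (0.114), and Slc27a6 with no filter on low values (0.0542).

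Of the genes on these lists that did not pass in limma, 2 passed in voom. Gramd1b, the paralog of Gramd1a, was at 17.8, 20.8 and 19.6 RPKM in floxed and 15.3, 15.6 and 15.3 RPKM in cKO libraries (-0.31, adjusted p = 0.105; voom adjusted p = 0.00102). Fabp5, a cytosolic fatty acid binding protein, was at 4.38, 4.34 and 4.64 RPKM in floxed and 3.15, 3.16 and 2.82 RPKM in cKO libraries (-0.43, adjusted p = 0.0884; voom adjusted p = 0.0488). Plin2, a coat protein of lipid droplets, was at 3.43 ± 0.373 and 2.29 ± 0.382 RPKM (-0.43, adjusted p = 0.208). At an unadjusted limma p under 0.05, 2 of the 60 genes were higher and 6 lower, including those that passed. Of all tested genes, 5.55% were higher and 8.6% lower at that limit. The 2 higher genes were Mylip (log2 difference 0.17, limma adjusted p = 0.272) and the X-linked Mid1ip1 (0.18, adjusted p = 0.272). Neither had groups that overlapped, and neither passed in voom. Gramd1b and Fabp5 were the 2 that passed in voom, which called 4 of these 60 genes lower and 0 higher. Over all tested genes voom called 2.41% lower and 1.78% higher. The median log2 difference was -0.05 for the 17 other sterol genes, -0.04 for the 20 of fatty acid synthesis and lipid storage and -0.08 for the 23 of oxidation and uptake.

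**Figure D4:**
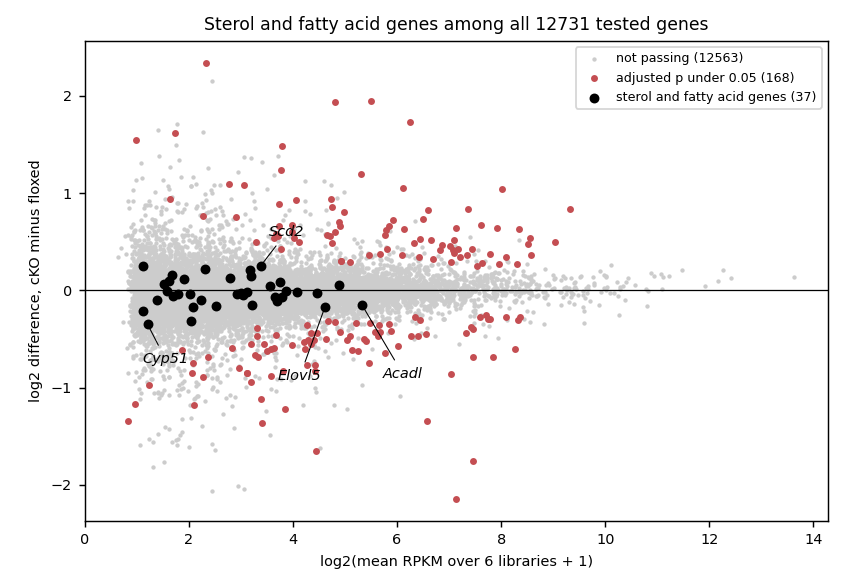
Log2 difference (cKO minus floxed) against mean level, log2(mean RPKM + 1), for all 12731 tested genes; red points are the 168 genes with a limma adjusted p under 0.05 and black points the 37 tested sterol and fatty acid genes. The black points lie between -0.35 and 0.25, inside the cloud of genes that did not pass, with Elovl5, Acadl, Scd2 and Cyp51 named.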

How the data were processed

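RNA-seq values of 6 mouse ILC1 libraries (3 floxed, 3 cKO) were taken from 1 table deposited by the authors, which gives RPKM and a gene length in bases for 24628 rows. The submitters' processing notes name the build mm10 and, with no role stated, edgeR 3.12.1, Subread 1.5.1 with featureCounts, and STAR 2.5.3a. Per the labels' protocols the libraries were stranded mRNA libraries from TRIzol RNA. All value columns were mapped to samples.

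Genes that reached 1 RPKM in 3 or more libraries were fitted with limma 3.58.1 in R 4.3.3 on log2(RPKM + 1), with a mean-variance trend and no covariate. Tests were two-sided, adjusted over all 12731 genes. Values are per library or mean ± SD. RPKM times length gave whole reads (within 0.01) for 100% of values above 0, and these reads served for depth, which limits precision for low genes, and for voom. Alternatives changed the pseudocount, filter, scaling, test, replicate block and libraries. The fit was tested on simulated data, in which every planted change was larger than any limma difference of the set. Smaller changes were not simulated. Promoters were taken from RefSeq (GRCm38.p6, 37 of 46 genes), and copies were sought with blastn 2.17.0 in GENCODE transcripts.

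The genes and lists were chosen with earlier results of these data known. Values per library were given for genes with an unadjusted p under 0.05 and, in each group, for the 2 most abundant and the 2 with the largest difference. Genes outside this rule that are given per library (Hmgcs1, Msmo1, Dhcr7, Scd1, Cpt1a, Cd36) were added after their values were seen. Of the other pathway genes, those that passed and at most 2 more per list were named.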

Additional observations from a re-analysis of the deposited data

How the results depend on the processing

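No gene of the set passed under any of the 15 alternatives, where the lowest adjusted p was 0.121 (Scd2, voom), and 24 of the 37 tested genes kept their sign in each alternative that tested them. A filter of 5 RPKM in 3 libraries left 20 of the 37 to test. Sizes were less stable than signs: leaving out 1 library moved the difference by over 1.5 times, or turned it, for 32 of 37 genes (not for Acadl, Cyp51, Elovl5, Mvk and Scd2), and voom did so for 6 (Acaca, Acat2, Cyp51, Idi1, Lss and Mvk). The sign of genes near 0 turned with scaling. With median-ratio scaling the log2 differences were 0.0091 (Srebf2), 0.019 (Npc2), 0.0052 (Acadvl), 0.0072 (Hadha) and 0.015 (Hadhb). With quantile normalisation they were 0.015 (Hmgcs1), 0.0091 (Srebf1), 0.021 (Srebf2), 0.0036 (Scap), 0.011 (Npc2), 0.011 (Soat1) and 0.033 (Hadhb). Leaving out 1 library gave -0.23 to 0.058 for Acat2, -0.19 to 0.067 for Hmgcs1, -0.11 to 0.060 for Idi1, -0.0046 to 0.31 for Nsdhl, -0.071 to 0.054 for Srebf2, -0.092 to 0.011 for Scap, -0.091 to 0.025 for Abca1, -0.044 to 0.043 for Npc2, -0.10 to 0.016 for Soat1, -0.084 to 0.022 for Acadvl, -0.063 to 0.028 for Hadha and -0.035 to 0.047 for Hadhb.

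Over all genes, 83 rose and 85 fell. These counts were 44 and 36 with no filter on low values, 226 and 307 with voom, 39 and 35 without the trend, and 33 to 50 and 27 to 39 with 1 library left out. Of the other pathway genes, 2 fell, against 1 with no filter, 4 with voom, 1 without the trend and 0 to 1 with 1 library left out. Rora passed with voom alone (log2 difference -0.29, adjusted p = 0.0242), and its adjusted p over the alternatives was 0.0242 to 0.464. The causes were not tested. Deviations of same-numbered libraries correlated at -0.032, 0.013 and 0.044, within the -0.098 to 0.086 of other-numbered libraries. With 3 libraries per group this cannot show whether libraries were paired by animal or batch. With the replicate block 37 genes rose and 23 fell, and 0 of the set and 0 of the other pathway genes passed (Gramd1a adjusted p = 0.0876, Slc27a6 0.0567).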
